A study of Arabidopsis thaliana with 24 samples.

Results

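The genes described here are the expansins and the xyloglucan endotransglucosylases/hydrolases (XTHs) of Arabidopsis thaliana, taken as every gene whose symbol in the array annotation begins with EXPA, EXPB, EXLA, EXLB or XTH and that has a probe set assigned to no other gene. The rule gave 31 members among 16554 genes tested. There were 22 expansins, namely 13 EXPA (alpha), 5 EXPB (beta), 3 EXLA and 1 EXLB (both expansin-like), and 9 XTHs. Of the XTHs, 6 belong to phylogenetic group II (XTH16, XTH18, XTH19, XTH20, XTH21 and XTH26) and 3 to group III (XTH29, XTH32 and XTH33), as read from the gene number. Of 71 expansin and XTH genes in the TAIR10.1 gene table, 3 more had a probe set of their own under another symbol. The other 14 expansins and 23 XTHs, among them every group I XTH, had no probe set in the annotation used and were not analysed here.

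Plant cells enlarge when the primary wall yields to turgor. Expansins loosen the contacts between cellulose and the matrix polysaccharides without cutting them, and alpha-expansins are known for acid-induced wall extension. XTHs cut xyloglucan, the main hemicellulose of the Arabidopsis primary wall, and either join the cut end to another chain or hydrolyse it, and EXLA and EXLB proteins share the expansin fold but have no established wall-loosening activity.

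RNA of roots and of shoots from 33 day old plants of 2 lines was hybridized to Arabidopsis Gene 1.1 ST arrays (Affymetrix). WT was Col-0, and OX7.5 was a single transgenic line in the Col-0 background that carries the whole NBR1 reading frame (NBR1 is a cargo receptor of selective autophagy) with a C-terminal TAP tag under a constitutive viral promoter, beside its own NBR1 gene. Plants were kept in sufficient sulfur (nS) or spent 4 days in sulfur deficit (-S), which gave 8 groups of line, organ and sulfur supply with 3 biological replicates each and 24 arrays in all. Where a label was silent on low sulphate the plants were taken as nS, and the labels speak of soil pots where the methods describe hydroponics.

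The array medians of the log2 values were 3.92 to 3.97 for shoots and 2.58 to 2.63 for roots, so the organs appear to have been normalized apart and no level of a member was compared between them. Within groups, arrays correlated at 0.980 to 0.990 in shoots and 0.973 to 0.991 in roots, and no 2 arrays were identical. Of 18 leaf photosynthesis markers 2 were measured (LHCB4.1 and RCA), and their summed linear signal was 2170 to 3370 in shoot arrays and 10.8 to 17.7 in root arrays. The listed root hair, endodermis and root transporter markers were not among the measured genes, so roots were checked only by the leaf markers. In root groups RCA lay below the array median (means 1.79 to 2.33), but LHCB4.1 lay above it (3.21 to 3.56). NBR1 itself was not among the genes tested on the arrays. By quantitative PCR on the same material, the paper reports more NBR1 transcript in OX7.5 than in WT in both organs. Arrays from nS and from -S have sample numbers in different runs, so a batch, if there was any, and sulfur supply cannot be told apart. In RNA from whole organs, fewer cells of a type and less RNA per cell cannot be told apart either.

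Probe sets differ in how they hybridize, so each level is given only against the median probe set of the arrays of its organ. That median covers all probe sets, and the median of the genes tested was lower, at 3.52 to 3.63 in shoot arrays and 2.18 to 2.24 in root arrays. Of the 31 genes, 13 had a mean signal above the median probe set in shoots and 16 in roots. EXPA genes were above it in 8 of 13 cases in shoots and 7 of 13 in roots, and EXPB genes in 2 of 5 and 3 of 5. None of the 6 group II XTHs was above it in shoots, against 3 of 6 in roots. Of the group III XTHs, XTH32 was above it in shoots (mean log2 signal 6.63) and XTH33, a membrane-anchored enzyme, in roots (3.49). No detection call accompanies the values.

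In the response to -S, changes are log2 differences (-S minus nS) with the standard error (SE) from limma, and a gene is called a DEG, upregulated or downregulated, at a fold change of at least 1.5 with a Benjamini-Hochberg adjusted p under 0.05 over all genes tested. Of the 31 genes, 20 were DEGs in at least 1 of the 4 combinations of line and organ, and 11 in none. No gene was upregulated in one organ and downregulated in the other. The same counts were not made over all genes tested, so they are given as description only. Of the 38 calls behind these counts, 25 concern a gene above its organ's median in both sulfur supplies, 10 a gene below it in 1 of them and 3 a gene below it in both.

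**Figure D1:**
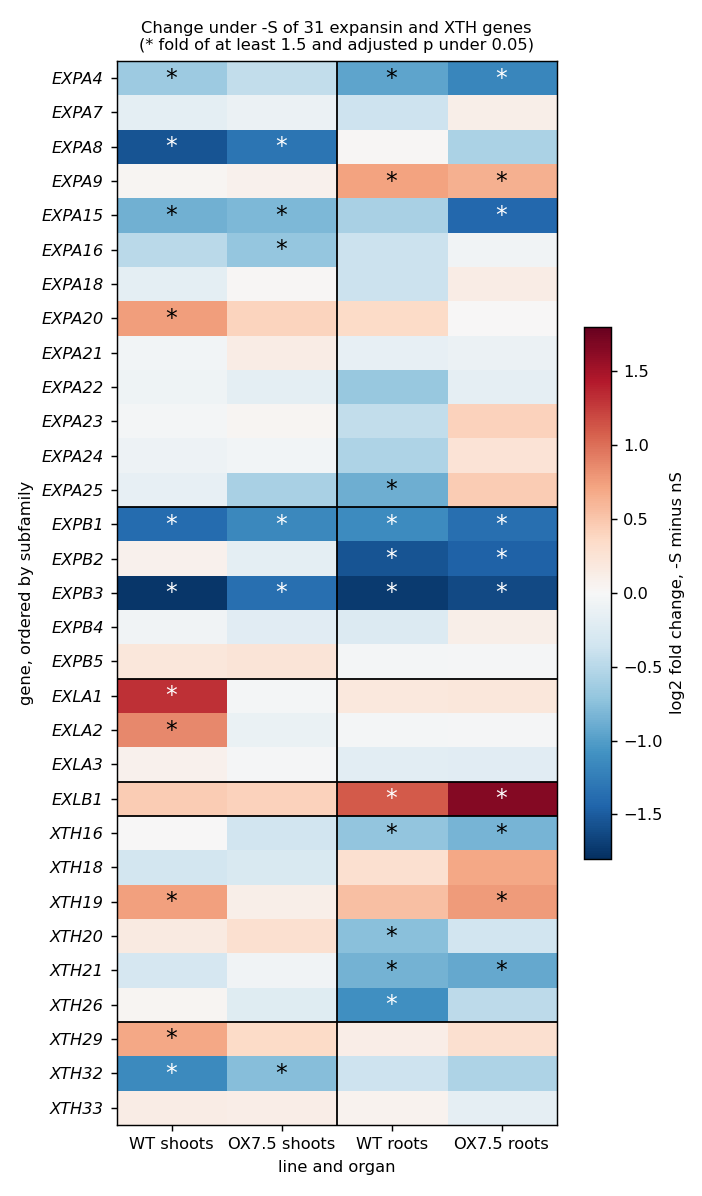
Change under -S (log2 fold change, -S minus nS, colour scale) of the 31 genes, in rows ordered by subfamily, in each line and organ. A star marks a fold change of at least 1.5 with an adjusted p under 0.05, and EXPB1 and EXPB3 carry it in all 4 columns.

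In WT shoots, 5 of the 31 genes (16.1%) were upregulated and 6 (19.4%) downregulated, where 8.62% of all genes tested rose and 9.42% fell. The upregulated genes were EXLA1, EXLA2, EXPA20, XTH19 and XTH29, and the downregulated ones EXPB3, EXPA8, EXPB1, XTH32, EXPA15 and EXPA4. In OX7.5 shoots, none rose and 6 (19.4%) fell, where 5.75% of all genes rose and 5.53% fell, and at an unadjusted p under 0.05 with the same fold still none rose (6.14% of all genes). Those that fell were EXPB3, EXPA8, EXPB1, EXPA15, XTH32 and EXPA16, of which the first 5 also fell in WT. The median change of the 31 genes was -0.05 in WT and -0.10 in OX7.5, beside -0.03 and 0.00 over all genes tested.

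In WT roots, 2 of the 31 (6.5%) were upregulated and 9 (29%) downregulated, where 9.21% of all genes rose and 7.2% fell. In OX7.5 roots, 3 (9.7%) rose and 7 (22.6%) fell, where 7.79% of all genes rose and 7.1% fell. EXPA4, EXPB1, EXPB2, EXPB3, XTH16 and XTH21 fell in the roots of both lines, and EXPA9 and EXLB1 rose in both. The median change was -0.37 in WT and -0.06 in the roots of OX7.5, beside -0.06 and -0.02 over all genes tested. The share that fell was thus above that of all genes in each of the 4 responses. The share that rose was below it in WT roots and OX7.5 shoots and above it in the other two.

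In WT shoots all 3 -S arrays lay above all 3 nS arrays for 4 members and below for 5, beside 17.3% and 18.1% of all genes. In OX7.5 shoots these were 2 and 8 members (15.9% and 15.1%), in WT roots 4 and 9 (17% and 18.5%), and in OX7.5 roots 4 and 8 (17.3% and 17.9%). Only the 9 and the 8 that were lower in roots and the 8 in OX7.5 shoots exceeded the share over all genes.

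The beta-expansins, a subfamily best known in grasses where its members loosen grass cell walls, gave the only genes that were downregulated DEGs in both organs of both lines. Changes below zero in every response were not particular to them. EXPA4, EXPA15 and XTH32, among others, also had them but missed a threshold in some responses. EXPB3 (AT4G28250, chromosome 4) had log2 signals of 7.25, 7.23 and 6.75 in the WT nS shoot arrays and of 5.76, 4.76 and 5.45 in the -S ones. In OX7.5 shoots it had 6.55, 7.15 and 7.52 in nS and 5.60, 6.24 and 5.32 in -S. All -S values lay below all nS values in each line. It changed by -1.75 (SE 0.36, limma adjusted p = 0.000627) in WT shoots and by -1.36 (SE 0.36, adjusted p = 0.0103) in those of OX7.5. In OX7.5 the adjusted p was 0.0562 without -S replicate 3 (change -1.16) and 0.0642 without nS replicate 3 (change -1.13).

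In roots EXPB3 lay far above the array median, with 7.98, 8.32 and 7.63 in WT nS and 7.40, 7.72 and 7.74 in OX7.5 nS. Under -S it had 6.79, 6.93 and 5.07 in WT roots and 5.72, 5.84 and 6.39 in OX7.5. The groups did not overlap, although WT -S replicate 3 lay well under the other WT -S arrays. It changed by -1.72 (SE 0.36, limma adjusted p = 0.000881) in WT and by -1.63 (SE 0.36, adjusted p = 0.00158) in OX7.5, and that in WT was -1.12 without WT -S replicate 3, still past the thresholds.

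EXPB1 (AT2G20750, chromosome 2) fell beside it. In shoots its log2 signals were 5.79, 5.24 and 6.13 in WT nS, 4.81, 4.01 and 4.18 in WT -S, 5.27, 5.56 and 5.62 in OX7.5 nS and 4.04, 4.06 and 4.85 in OX7.5 -S, again with no overlap between nS and -S. It changed by -1.39 (SE 0.28, limma adjusted p = 0.000453) in WT and by -1.16 (SE 0.28, adjusted p = 0.00427) in OX7.5. In roots its signals were 2.43, 3.74 and 3.35 in WT nS and 2.22, 2.00 and 1.90 in WT -S, and 3.50, 3.15 and 3.54 in OX7.5 nS and 1.94, 1.90 and 2.31 in OX7.5 -S. Every -S root array lay below the array median of roots, so these falls of -1.13 (SE 0.28, adjusted p = 0.00365) and -1.35 (SE 0.28, adjusted p = 0.000771) ended in the range of dim probe sets.

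EXPB2 (AT1G65680, chromosome 1) was downregulated in roots only. Its log2 signals there were 3.51, 3.9 and 3.99 in WT nS and 2.59, 2.34 and 1.82 in WT -S, and 3.85, 3.35 and 3.83 in OX7.5 nS and 2.13, 2.29 and 2.27 in OX7.5 -S. The nS and -S arrays did not overlap, and every -S array lay below the median. It changed by -1.55 (SE 0.19, limma adjusted p = 8.36e-07) in WT and by -1.45 (SE 0.19, adjusted p = 2.42e-06) in OX7.5. In shoots all 12 arrays lay below the organ's median, at 2.39 to 3.10, and it changed by 0.08 in WT and -0.18 in OX7.5. EXPB4 and EXPB5, which were below the median in both organs, changed by -0.25 to 0.23 and were DEGs nowhere. Of the 5 beta-expansins, 2 thus fell in the shoots and 3 in the roots of each line, and none rose. Over all genes tested, 9.42% (WT) and 5.53% (OX7.5) fell in shoots, and 7.2% and 7.1% in roots. In the same responses 5.75% to 9.21% of all genes rose, so the lack of a rise among 5 genes carries little weight.

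**Figure D2:**
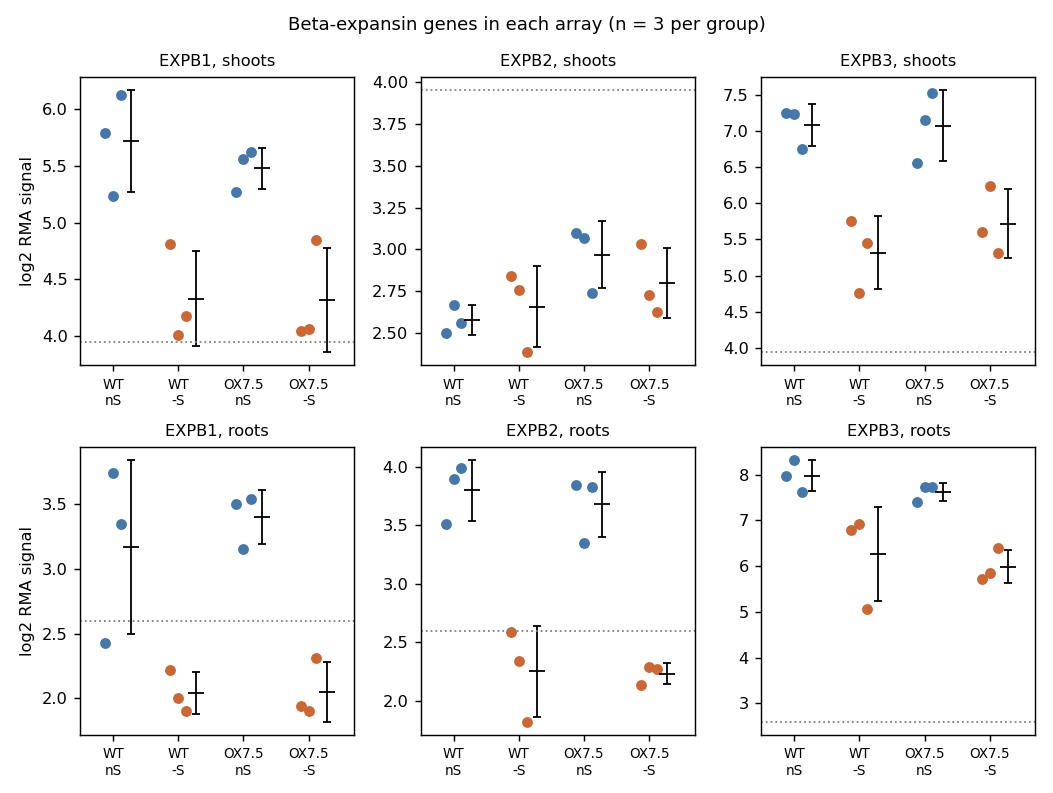
Log2 signal of EXPB1, EXPB2 and EXPB3 in each shoot array (upper panels) and root array (lower panels) by line and sulfur supply (blue nS, orange -S), with mean ± SD (n = 3) in black and the organ's median probe set as a dotted line. The -S points lie below the nS points of the same line in every panel but that of EXPB2 in shoots, and the vertical scales differ.

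Alpha-expansins moved in both directions. EXPA8 (AT2G40610, chromosome 2) fell in shoots, where it had 6.82, 5.4 and 6.98 in WT nS, 4.93, 5.59 and 4.00 in WT -S, 6.13, 5.46 and 5.88 in OX7.5 nS and 4.27, 4.42 and 4.84 in OX7.5 -S. In WT 1 -S array (5.59) lay above 1 nS array (5.4), and in OX7.5 the groups did not overlap. The changes were -1.56 (SE 0.37, limma adjusted p = 0.00265) and -1.31 (SE 0.37, adjusted p = 0.0164). In OX7.5 the adjusted p passed 0.05 without -S replicate 1 (0.0693), -S replicate 2 (0.0569) or nS replicate 1 (0.0827), with changes of -1.16 to -1.27. In roots it lay below the median and changed by 0.02 in WT and -0.57 in OX7.5, neither a DEG.

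EXPA15 (AT2G03090, chromosome 2) was downregulated in the shoots of both lines and in OX7.5 roots. In OX7.5 roots it had log2 signals of 5.28, 5.41 and 5.62 in nS and of 3.95, 4.20 and 3.94 in -S, a change of -1.41 (SE 0.25, limma adjusted p = 0.000149). In WT roots it had 4.39, 5.27 and 5.20 in nS and 4.45, 4.79 and 3.83 in -S, and these arrays overlapped. The change there was -0.59 (SE 0.25, adjusted p = 0.0910), and the difference between the lines, -0.81 (SE 0.35), did not pass the threshold (adjusted p = 0.463). In shoots the values were 5.36, 5.63 and 4.99 in WT nS, 4.91, 4.33 and 4.14 in WT -S, 5.25, 5.53 and 5.93 in OX7.5 nS and 4.81, 4.91 and 4.56 in OX7.5 -S. The shoot changes of -0.87 (WT) and -0.81 (OX7.5) rested on few arrays. Leaving out WT -S replicate 3 or nS replicate 2 gave -0.71 and -0.72, and leaving out OX7.5 -S replicate 1, -S replicate 3, nS replicate 2 or nS replicate 3 gave -0.63 to -0.83, all with an adjusted p above 0.05.

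EXPA4 (AT2G39700, chromosome 2) lay far above the median in roots and fell there. It had 7.24, 7.16 and 7.08 in WT nS and 6.50, 6.46 and 5.65 in WT -S, and 6.84, 7.5 and 7.13 in OX7.5 nS and 5.92, 6.11 and 5.93 in OX7.5 -S. The nS and -S arrays did not overlap in either line. The changes were -0.95 (SE 0.24, limma adjusted p = 0.00512) and -1.17 (SE 0.24, adjusted p = 0.000875). Without WT roots -S replicate 3 the change in WT was -0.68 and its adjusted p 0.0599. In shoots EXPA4 lay near the median, and its change of -0.66 in WT (adjusted p = 0.04998) was at the threshold. That call was lost without any 1 array other than WT shoots nS or -S replicate 3, OX7.5 shoots nS replicate 1 or 3, WT roots -S replicate 1 or 3 and OX7.5 roots nS replicate 1 or 2, with changes from -0.38 to -0.72.

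The remaining alpha-expansins changed less. EXPA9 rose in the roots of both lines, by 0.73 (SE 0.19, limma adjusted p = 0.00560) in WT and 0.64 (SE 0.19, adjusted p = 0.0170) in OX7.5. In OX7.5 the call was lost without -S replicate 2, nS replicate 2 or nS replicate 3 (0.51 to 0.59). EXPA20 rose in WT shoots by 0.75 (SE 0.18, adjusted p = 0.00310), but its other, dimmer probe set went from a mean of 4.35 to one of 4.42. EXPA16 fell in OX7.5 shoots by 0.70 (adjusted p = 0.0408), a call that was lost without any 1 of 5 of the 6 arrays, namely nS replicates 1, 2 and 3 and -S replicates 1 and 3 (-0.46 to -0.74). EXPA7 and EXPA18, which act in root hair outgrowth, were above the median in roots and were DEGs nowhere, with WT root changes of -0.37 and -0.39 against 0.11 and 0.14 in the OX7.5 roots.

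EXPA21 to EXPA25 lie close together on chromosome 5 (AT5G39260 to AT5G39310). EXPA21, EXPA22 and EXPA23 are neighbours, as are EXPA25 and EXPA24, and the 1 protein-coding gene between EXPA23 and EXPA25 is a further expansin, EXP26 (AT5G39290). In WT roots EXPA25 had 4.14, 4.31 and 3.57 in nS and 3.17, 3.78 and 2.44 in -S and was downregulated (-0.88, SE 0.26, limma adjusted p = 0.0151), whereas in OX7.5 roots it had 3.76, 3.21 and 3.55 in nS and 4.04, 4.13 and 3.71 in -S, a change of 0.46 (adjusted p = 0.266). The WT call was lost without WT roots -S replicate 3 (-0.53), nS replicate 1 (-0.81) or nS replicate 2 (-0.73). EXPA22, EXPA23 and EXPA24 changed by -0.68, -0.44 and -0.55 in WT roots against -0.16, 0.42 and 0.24 in those of OX7.5, none of them a DEG and all from probe sets below the median. EXPA21 changed by -0.15 and -0.10, and EXP26 by -0.07 and -0.02.

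The response in OX7.5 roots minus that in WT roots was 1.33 (SE 0.37) for EXPA25, 0.86 for EXPA23, 0.79 for EXPA24, 0.52 for EXPA22, 0.05 for EXP26 and 0.04 for EXPA21. None of these differences passed the threshold, with limma adjusted p from 0.240 for EXPA25 to 0.974 for EXP26. Whether the probe sets of these related genes detect each other's transcripts was not tested.

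**Figure D3:**
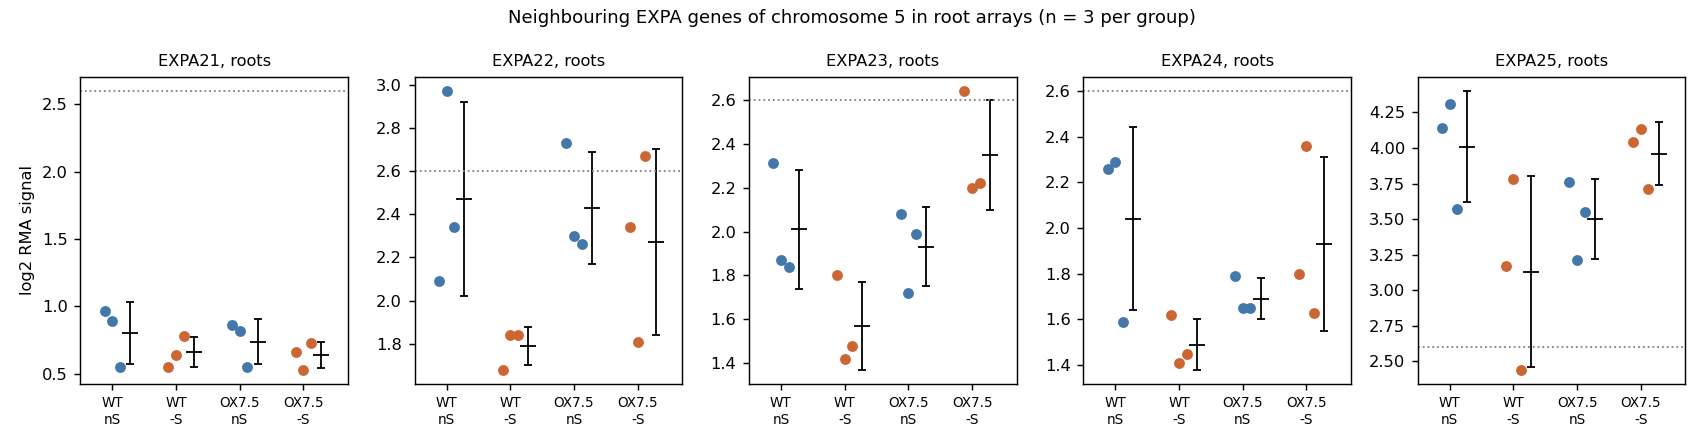
Log2 signal of EXPA21 to EXPA25 in each root array by line and sulfur supply (blue nS, orange -S), with mean ± SD (n = 3) in black and the median probe set of roots as a dotted line. From EXPA22 to EXPA25 the WT means are lower in -S, and in OX7.5 those of EXPA23, EXPA24 and EXPA25 are higher, on scales that differ between panels.

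The rises of at least 1 on the log2 scale were those of EXLA1 in WT shoots and EXLB1 in the roots of both lines. EXLA1 (AT3G45970, chromosome 3) had log2 signals of 4.59, 5.29 and 4.59 in WT nS shoots and 6.33, 6.08 and 6.01 in WT -S shoots, a rise of 1.32 (SE 0.22, limma adjusted p = 5.98e-05). In OX7.5 shoots it had 5.88, 5.92 and 5.75 in nS and 6.12, 5.60 and 5.75 in -S. There the nS arrays already lay above all WT nS arrays, and the change was -0.03 (SE 0.22). EXLA2 (AT4G38400, chromosome 4), whose loss is known to alter growth and the reaction to necrotrophic fungi, had 3.52, 4.21 and 3.23 in WT nS, 4.57, 4.74 and 4.23 in WT -S, 4.71, 4.60 and 4.29 in OX7.5 nS and 4.14, 4.77 and 4.32 in OX7.5 -S. It rose by 0.86 (SE 0.21, adjusted p = 0.00275) in WT and changed by -0.12 (SE 0.21) in OX7.5. Its mean in WT nS shoots (3.65) lay below the shoot median, unlike those of its other shoot groups. EXLA3, the neighbour of EXLA1, stayed at 1.76 to 2.26 in all shoot arrays, below the median, and changed by 0.08 and -0.02.

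Between the lines, 2 of the 31 genes differed in nS shoots and both were higher in OX7.5, where 0.882% of all genes tested were higher and 0.737% lower. These were EXLA1, by 1.03 (SE 0.22, limma adjusted p = 0.0111), and EXLA2, by 0.88 (SE 0.21, adjusted p = 0.0238). For EXLA2 the WT nS mean lay below the shoot median. The call of EXLA1 was lost without WT nS replicate 1 or 3 or OX7.5 nS replicate 2 (0.91 to 1), and that of EXLA2 without any of these or OX7.5 nS replicate 1 (0.67 to 0.85). The difference between the -S responses of the lines passed its threshold (adjusted p under 0.05) for EXLA1 in shoots, -1.35 (95% interval -1.99 to -0.71, adjusted p = 0.0430), where 0.193% of all genes had a higher and 0.344% a lower response in OX7.5. EXLA2 had -0.98 (SE 0.29, adjusted p = 0.166). Both comparisons use the nS arrays of both lines, so the line difference in nS and the difference in response are not separate evidence. The call of EXLA1 was lost without any 1 shoot array other than OX7.5 -S replicate 1 and WT nS replicate 2 (adjusted p 0.0564 to 0.138, differences -1.23 to -1.42), and also without any WT root array or OX7.5 roots -S replicate 1 or 3.

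Arrays of OX7.5 lay above all those of WT for 4 members in nS shoots (6.72% of all genes) and below for 0 (7.77%). In the other line comparisons no member passed. In -S shoots, where 0.0242% of all genes were higher and 0.0544% lower in OX7.5, 1 member (XTH18, -0.71) passed the fold threshold with an unadjusted p under 0.05, as did 1.19% of all genes. In nS roots (0.375% and 0.429% of all genes) 1 did (XTH20, -0.60), at 3.23% of the members near the 3.24% of all genes, and in -S roots (0% and 0%) 2 did (EXPA23, 0.78, and EXPA25, 0.83), beside 0.616% of all genes. In roots the difference between the responses passed for none of the members, against 0.0362% of all genes higher and 0.0242% lower, and 6 members (19.4%, beside 9.64% of all genes) had an unadjusted p under 0.05 (EXPA7, EXPA15, EXPA23, EXPA24, EXPA25 and EXLB1). Non-overlapping arrays, higher and lower in OX7.5, were found for 1 and 1 members in -S shoots (5.72% and 4.68% of all genes), 1 and 4 in nS roots (7.14% and 8.15%) and 2 and 2 in -S roots (6.53% and 5.25%).

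EXLB1 (AT4G17030, chromosome 4) rose in roots, where its log2 signals were 3.91, 3.86 and 3.66 in WT nS, 4.78, 4.98 and 5.01 in WT -S, 3.48, 3.41 and 3.44 in OX7.5 nS and 5.09, 5.25 and 4.95 in OX7.5 -S. Each -S array lay above every nS array of either line. The rises of 1.11 (SE 0.18, limma adjusted p = 4.88e-05) in WT and 1.65 (SE 0.18, adjusted p = 2.02e-07) in OX7.5 differed by 0.54 (SE 0.25, adjusted p = 0.509). In shoots it changed by 0.46 in WT and by 0.42 in OX7.5, neither a DEG.

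**Figure D4:**
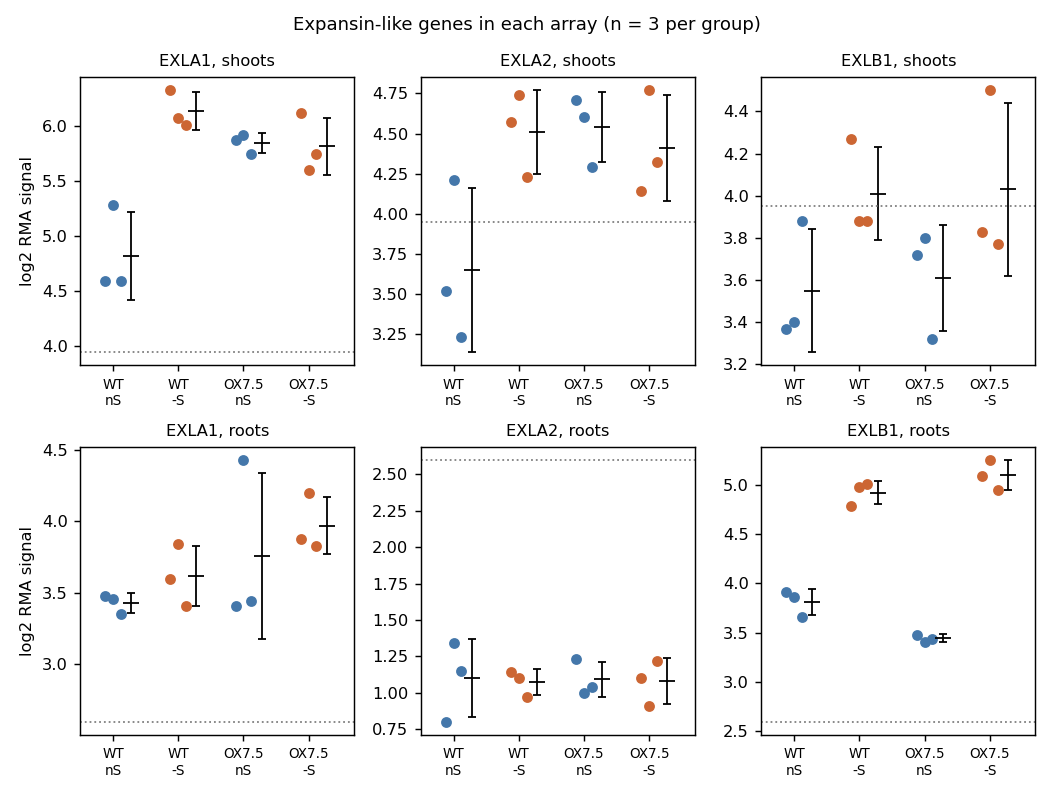
Log2 signal of EXLA1, EXLA2 and EXLB1 in each shoot array (upper panels) and root array (lower panels) by line and sulfur supply (blue nS, orange -S), with mean ± SD (n = 3) in black and the organ's median probe set as a dotted line. In shoots EXLA1 and EXLA2 have a lower mean in WT nS than in the other groups, and in roots EXLB1 is higher in -S than in nS in both lines, on scales that differ between panels.

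Group II XTHs are mostly transglucosylases, and all 6 lay below the median in shoots, where 1 rose in WT (XTH19) and none was a DEG in OX7.5. In roots 4 of 6 fell in WT (XTH16, XTH20, XTH21 and XTH26) and 2 of 6 in OX7.5 (XTH16 and XTH21), while XTH19 rose in OX7.5. Over all genes tested, 8.62% rose in WT shoots, 7.2% fell in WT roots, and 7.1% fell and 7.79% rose in OX7.5 roots. Among these root calls, XTH16 ended below the root median in both lines (-S means 2.22 and 2.04), and XTH21 in OX7.5 (2.54). XTH19 began below it in OX7.5 (nS mean 1.97), and XTH20 lay below it in WT in both supplies. The root and shoot responses differed for 1 of the 6 in each line (XTH26 in WT and XTH21 in OX7.5). XTH26 (AT4G28850, chromosome 4), known from root hairs, had 4.97, 3.77 and 4.48 in WT nS roots and 3.43, 3.23 and 3.24 in WT -S roots with no overlap, a fall of 1.11 (SE 0.24, limma adjusted p = 0.00108). In OX7.5 roots it had 4.28, 3.69 and 3.78 in nS and 3.36, 3.75 and 3.24 in -S, which overlapped, and the change was -0.47 (SE 0.24, adjusted p = 0.199). XTH21, which is required for normal primary root growth, changed by -0.85 (SE 0.20, adjusted p = 0.00277) in WT and -0.92 (SE 0.20, adjusted p = 0.00151) in OX7.5 roots, and XTH16 by -0.71 (SE 0.21, adjusted p = 0.0148) and -0.84 (SE 0.21, adjusted p = 0.00422).

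XTH20 fell in WT roots by 0.75 (SE 0.25, limma adjusted p = 0.0298) from a level at the median, and changed by -0.34 without WT roots nS replicate 1, -0.56 without -S replicate 3 and -0.78 without -S replicate 2, none of which was a DEG. XTH16 in WT roots lost its call without nS replicate 3 (-0.48), -S replicate 1 (-0.59) or -S replicate 2 (-0.62). XTH18 and XTH19 are neighbours on chromosome 4 and close relatives known from the elongating root. XTH19 rose in OX7.5 roots by 0.76 (SE 0.25, adjusted p = 0.0327) and XTH18 changed by 0.70 (SE 0.31, adjusted p = 0.12). The call of XTH19 was lost without nS replicate 1, 2 or 3 or -S replicate 2 or 3 of OX7.5 roots (0.65 to 0.81). In WT shoots XTH19 rose by 0.74 (adjusted p = 0.0320) from a probe set below the median in all arrays, and that call was lost without nS replicate 1 or 2 or -S replicate 1 or 2 (0.38 to 0.76).

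In group III, whose members include predicted xyloglucan hydrolases such as XTH32, the DEGs were in shoots. XTH32 (AT2G36870, chromosome 2) had 7.33, 6.93 and 7.12 in WT nS shoots, 6.37, 5.56 and 6.04 in WT -S, 7.18, 6.89 and 7.15 in OX7.5 nS and 6.22, 6.18 and 6.54 in OX7.5 -S. Every -S array lay below every nS array. It changed by -1.14 (SE 0.18, limma adjusted p = 4.23e-05) in WT and by -0.76 (SE 0.18, adjusted p = 0.00494) in OX7.5. In roots, where its group means lay below the median, the -S arrays of XTH32 were also all lower than the nS arrays in both lines, but its changes of -0.37 in WT (adjusted p = 0.158) and -0.56 in OX7.5 (adjusted p = 0.0310) were under the fold threshold. XTH29 rose in WT shoots by 0.69 (SE 0.18, adjusted p = 0.00458) and changed by 0.35 in OX7.5 shoots (adjusted p = 0.214), below the median in both. XTH33 changed by -0.16 to 0.13 and was a DEG nowhere.

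The root response was then compared with the shoot response of the same line (root change minus shoot change, adjusted p under 0.05). In WT it was higher for 2 members and lower for 4, where 12.1% of all genes tested were higher and 10.3% lower. EXPA8 and XTH32 were downregulated in WT shoots and were not DEGs in roots, with differences of 1.58 (SE 0.53, limma adjusted p = 0.0326) and 0.76 (SE 0.26, adjusted p = 0.0359). That of EXPA8 was lost without WT shoots nS replicate 1 or 3 or -S replicate 3 or WT roots nS replicate 1 or -S replicate 1 or 2 (1.16 to 1.56), and that of XTH32 without WT shoots nS replicate 1 or 3 or -S replicate 2 or 3 or WT roots nS replicate 2 or 3 or -S replicate 1 or 2 (0.55 to 0.79). EXPB2 and XTH26 were downregulated in WT roots and were not DEGs in shoots, with differences of -1.63 (SE 0.26, adjusted p = 6.82e-05) and -1.14 (SE 0.34, adjusted p = 0.0155), the latter lost without WT roots nS replicate 1 (-0.86). EXLA1 and EXLA2 were upregulated in WT shoots and were not DEGs in roots (-1.13, adjusted p = 0.00980, and -0.89, adjusted p = 0.0300). That of EXLA2 was lost without WT shoots nS replicate 1 or 3 or -S replicate 1 or 2 or WT roots nS replicate 2 or 3 or -S replicate 3 (-0.67 to -0.86), and with quantile normalization (-0.78). Of these genes, all but EXLA1 had a mean signal below the median in the organ where they were not DEGs. Whether a dim probe set limits the change seen there was not tested.

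In OX7.5 the root response was higher for 1 member and lower for 2, where 7.88% of all genes were higher and 8.48% lower. These were EXLB1 (1.23, SE 0.25, limma adjusted p = 0.00141), EXPB2 (-1.27, SE 0.26, adjusted p = 0.00137) and XTH21 (-0.85, SE 0.29, adjusted p = 0.0438). That of XTH21 was lost without any 1 OX7.5 array other than roots nS replicate 2 (-0.70 to -0.90, adjusted p up to 0.123), and without WT shoots -S replicate 3 or WT roots -S replicate 2. In shoots, EXLB1, EXPB2 and XTH21 each had a mean signal below the median, and none was a DEG there in OX7.5. XTH32 had 0.20 in OX7.5 (adjusted p = 0.687). Members in which roots and shoots differed were thus 6 of 31 in WT and 3 of 31 in OX7.5, both below the share over all genes. For EXPB1 and EXPB3, which fell in both organs, no difference passed.

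**Figure D5:**
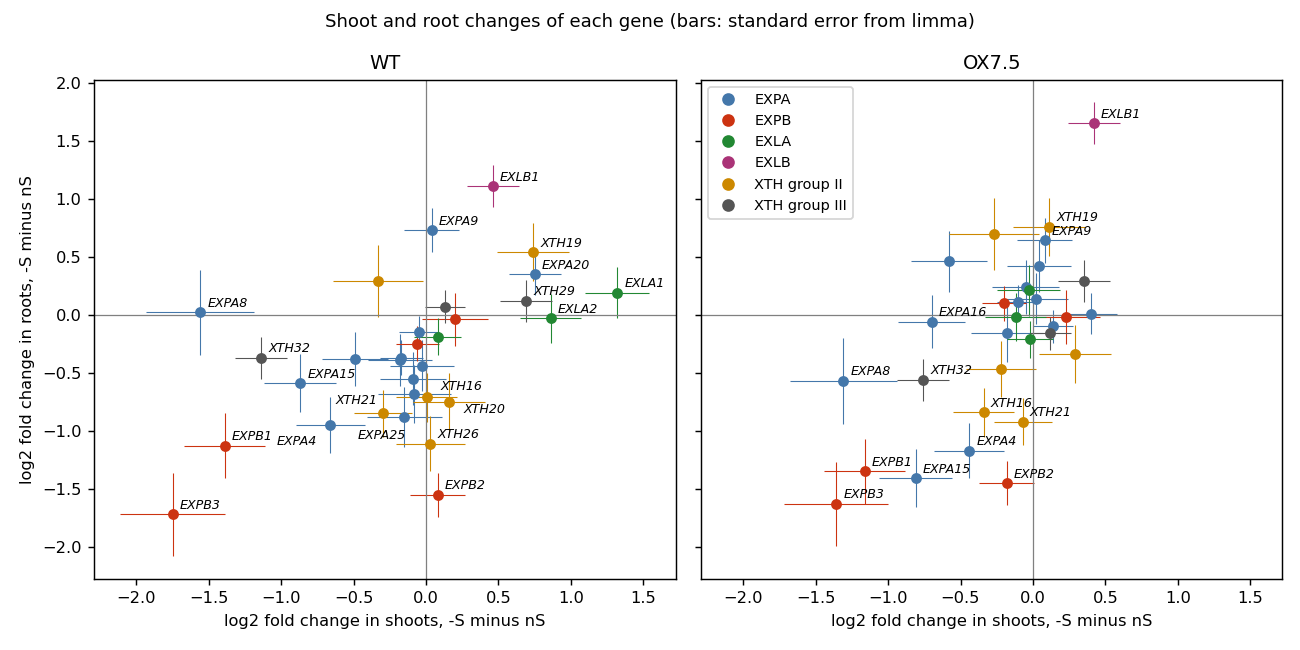
Log2 fold change under -S in shoots (horizontal) and in roots (vertical) of each of the 31 genes in WT (left) and OX7.5 (right), with SE from limma as bars, coloured by subfamily, and names on genes that were DEGs in either organ. EXPB1 and EXPB3 lie at the lower left in both lines, EXPB2 low on the vertical axis, and EXLA1 at the right in WT but near 0 in OX7.5.

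Other genes of the primary wall were measured in small part. Of 16 listed genes for xyloglucan synthesis and trimming, 5 were measured, all CSLC genes, and in roots CSLC4, which makes the glucan backbone of xyloglucan, rose in both lines, by 0.79 (SE 0.17, limma adjusted p = 0.000827) in WT and 0.65 (SE 0.17, adjusted p = 0.00533) in OX7.5. CSLC6 rose in WT roots (0.60, adjusted p = 0.00913), CSLC5 fell in OX7.5 roots (-0.79, adjusted p = 0.0119) and CSLC8 fell in WT shoots (-0.64, adjusted p = 0.0291). In the 4 responses this list thus had 0 up and 1 down (WT shoots), 0 and 0 (OX7.5 shoots), 2 and 0 (WT roots) and 1 and 1 (OX7.5 roots) of 5. Both measured genes of 10 for extensins and leucine-rich repeat extensins fell once, LRX4 in WT shoots (-0.71, adjusted p = 0.000882) and LRX5 in OX7.5 roots (-0.59, adjusted p = 0.0210). COB, which orients cellulose deposition, PME35, a pectin methylesterase, and IRX10, a xylan synthase of xylem, were the single measured genes of their lists (of 10, 15 and 14) and were DEGs nowhere, and no gene of a list of 12 growth hormone genes was measured. The 3 relatives under other symbols were under the fold threshold in every response. XTH27 (listed as EXGT-A3) had positive changes with an adjusted p under 0.05 in all 4, 0.41 (WT shoots, adjusted p = 0.0414), 0.43 (OX7.5 shoots, 0.0458), 0.50 (WT roots, 0.0123) and 0.52 (OX7.5 roots, 0.0111). EXLB2 and EXP26 changed by -0.36 to 0.19.

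In shoots the summed signal of the leaf markers was also lower in -S, at 2190 to 2250 against 2980 to 3370 in WT nS and 2170 to 2580 against 2990 to 3020 in OX7.5 nS. Both markers were above the array median in all shoot groups. The changes of LHCB4.1 and RCA in shoots, -0.33 to -0.54, were below the fold threshold, and their part in the falls of EXPB1, EXPB3, EXPA8, EXPA15 and XTH32 was not tested.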

How the data were processed

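The authors deposited log2 probe-set values, for which the submitters' processing notes name robust multi-array average (RMA) and Partek, with versions not given in the sources used here. Of 28583 probe sets, 16746 were annotated to exactly 1 gene. The brightest probe set per gene was kept, which gave 16554 genes, of which 16514 matched the TAIR10.1 gene table. The annotation names no genome build, so no coordinates are given. No sequence was used here.

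All 24 arrays entered a single linear model of 8 group means (limma 3.58.1, R 4.3.3, 16 residual degrees of freedom, empirical Bayes) after being tested on simulated data. P-values were adjusted over all genes tested. The methods name a 3-way ANOVA without its factors. Members and gene lists were chosen with earlier results of these data known. Named genes are members that passed a call, with every array's value where a -S change of at least 1 on the log2 scale was called, and at most 4 genes per other list. EXPA7, EXPA18, EXPA21 to EXPA25, EXPB4, EXPB5, EXLA3, XTH18, XTH33 and EXP26 were singled out after their values were seen. With 3 arrays per group, the number of arrays limits the precision. Alternatives covered scaling, dim genes, probe-set choice, moderation, thresholds, single-organ fits, a replicate block and leaving out each array.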

Additional observations from a re-analysis of the deposited data

Results flagged for a closer look

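A test of the difference itself set apart 10 results, in which the -S response differed between lines or between organs. Over all genes tested, the root response was higher for 12.1% and lower for 10.3% in WT, and for 7.88% and 8.48% in OX7.5. Taking both directions together, the share of members with an organ difference was below that of all genes in each line. Between lines, 0.193% of all genes had a higher and 0.344% a lower shoot response in OX7.5. In shoots, the response of EXLA1 was lower in OX7.5 than in WT by a log2 difference of -1.35 (SE 0.31, limma adjusted p = 0.0430). In WT, the root response differed from the shoot response (root minus shoot) by 1.58 for EXPA8, -1.63 for EXPB2, -1.13 for EXLA1, -0.89 for EXLA2, -1.14 for XTH26 and 0.76 for XTH32. In OX7.5 it differed by -1.27 for EXPB2, 1.23 for EXLB1 and -0.85 for XTH21. EXPB2 was set apart in both lines. Apart from EXLA1, each gene that differed between organs had a mean signal below the median in the organ where it was not a DEG. The results for EXLA1 between lines and for EXPA8, EXLA2, XTH26, XTH32 and XTH21 between organs were lost when 1 of several arrays (for XTH26, WT roots nS replicate 1 alone) was left out, down to 1.16 for EXPA8, -0.67 for EXLA2, -0.86 for XTH26, 0.55 for XTH32 and -0.70 for XTH21. Groups of 3 arrays are too small for a test of single outlying arrays.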

How the results depend on the processing

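No direction reversed under 11 other settings or with any of the 24 arrays left out, but most of these could not reverse one. Thresholds, moderation, the replicate block, single-organ fits, the dim filter and every probe set leave a member's log2 change as it was. So does leaving out an array that is not part of the comparison. Of 50 calls or tested differences of single members, 21 held under each setting run for them, and 28 apart from the stricter fold of 2. The filter on dim genes could not be run for 14 of the 50, too dim to enter it, 3 of the 21 among them. At a fold of 2, members called were 5 (WT shoots), 3 (OX7.5 shoots), 5 (WT roots), 6 (OX7.5 roots) and 1 (line difference, nS shoots). Of the 16554 genes tested, 1174, 598, 1027, 945 and 105 were called in that order. Without moderation members called were 3 in OX7.5 shoots, 0 for the line difference in nS shoots, 0 for the difference in shoot response between lines and 3 for the WT organ difference. Over all genes these were 1661, 152, 25 and 3472. Arrays of 1 organ alone gave 1 for the line difference in nS shoots (117 of all genes) and 0 for the shoot response difference (11 of all genes). The latter was also 0 with quantile normalization (90 of all genes) or every probe set (81 of all genes). With dim genes left out, organ differences were 2 in WT and 1 in OX7.5, of which 1 and 0 were among those reported, the other reported members having been filtered out. Among all genes kept by that filter, 2034 and 1695 passed. With an unadjusted p, line differences were 1 in -S shoots, 1 in nS roots and 2 in -S roots, response differences 2 in shoots and 6 in roots, and organ differences 11 in WT and 7 in OX7.5, beside 1.19%, 3.24%, 0.616%, 8.93%, 9.64%, 33% and 28.2% of all genes in that order. The causes were not tested.

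With each array left out, members called ranged from 8 to 12 in WT shoots, 3 to 6 in OX7.5 shoots, 8 to 12 in roots of WT and 8 to 11 in roots of OX7.5. The 3 in OX7.5 shoots came without -S replicate 1, -S replicate 3 or nS replicate 3, where 1749, 1997 and 1836 of all genes were called. The line difference in nS shoots ranged from 0 to 2 (0 without OX7.5 nS replicate 2 or WT nS replicate 1 or 3, 1 without OX7.5 nS replicate 1) and the other line differences stayed at 0. The shoot response difference ranged from 0 to 2 and moved with 19 of the 24 arrays, root arrays included. It was 2 without WT shoots nS replicate 2 (215 of all genes), and the root response difference stayed at 0. Organ differences ranged from 3 (without WT shoots nS replicate 3) to 8 in WT and from 2 to 4 in OX7.5.

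Within an organ, replicates with the same number did not deviate together (correlations -0.24 to 0.14 over 18 pairs in shoots and -0.08 to 0.11 in roots), so the numbers were not taken as pairs. Shoot and root arrays with the same number were not compared. Whether they are paired was thus not tested, and the root minus shoot differences treat them as independent. With the replicate number as a block within each organ, members called were 10 in WT shoots, 6 in OX7.5 shoots, 11 in roots of WT and 10 in roots of OX7.5, and 1 call was lost, EXPA4 in WT shoots (adjusted p = 0.0565). Over all genes tested, 2979, 1875, 2721 and 2461 were called in that order. For EXPA20, the mean of both probe sets gave 0.41 in WT shoots, below the fold threshold.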
